A study of Mus musculus with 12 samples.

Results

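Oviduct was compared with uterus in mice given an excess of estradiol (E2) in the preimplantation period of pregnancy. The comparison rests on 6 of the 12 Affymetrix mouse gene arrays of the study, 3 of E2 oviduct and 3 of E2 uterus, chosen by their sample titles alone. E2 mice received 10 µg/kg of E2 in 100 µl of sesame oil by daily subcutaneous injection on days 0.5 through 2.5 after mating, and were dissected on day 3.5. The other 6 arrays come from oviduct (3) and uterus (3) of mice given the oil alone, dissected on the same day, and serve here as the reference for the tissue difference without added E2. All mice were thus in the preimplantation period and all received oil injections. Oviducts and uterine horns were flushed before they were frozen. The sources used here do not state strain, genotype, age or the number of mice behind each RNA sample. Replicates are labelled as biological, so the p-values below measure the spread between these samples. Mice on lower amounts of E2 lie outside the comparison.

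The oviduct and the uterus both form from the Müllerian ducts of the embryo, along which Hox genes and other patterning factors set regional identity. The oviduct is lined by multiciliated and secretory cells, whose beating cilia and secretions, with the surrounding muscle, move and nourish the early embryo. The uterus has a luminal and glandular epithelium over a thick stroma and muscle. E2 acts there mainly through the nuclear receptor ESR1, drives epithelial growth and secretion, and is opposed by progesterone, which prepares the lining for implantation. The questions addressed are which differences between the tissues remain in E2 mice, and which arise, close or turn round relative to oil mice.

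Values are log2 array intensities of 19938 genes, and a tissue difference is oviduct minus uterus in log2 units with its standard error (SE) from limma, fitted on all 12 arrays. A gene was called when its Benjamini-Hochberg adjusted p over all genes was below 0.05, and all adjusted p-values below come from that fit. The tissues separated along the first principal component, which held 65.3% of the variance, with scores of 35.6 to 46.9 for oviduct and -47.5 to -35.1 for uterus. Array medians lay between log2 6.88 and 6.93, and each E2 array differed from the mean of its group's other arrays by over 1 log2 unit for 8 to 20 genes. Replicate 3 of both oil groups stood apart, with 302 such genes in oviduct and 177 in uterus against 19 to 62 in the other oil arrays. Results that rest on the oil arrays are therefore also given without them where a call changes. Y-linked genes, which these tissues lack, read at most log2 5.36 apart from Sry at 7.50, so the size of a fold is uncertain where a tissue lies in that range.

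In E2 mice 6793 genes (34.1%) were called between oviduct and uterus, 3021 (15.2%) higher in oviduct and 3772 (18.9%) higher in uterus. Of these, 852 (4.27%) were at least 2-fold higher in oviduct and 373 (1.87%) at least 2-fold higher in uterus. The median absolute difference over all genes was 0.17 and the median signed difference -0.04. The 3 oviduct and 3 uterus arrays did not overlap for 49.8% of genes, with oviduct higher for 21.1% and uterus higher for 28.7%. In oil mice, whose arrays are separate from those of E2 mice, 7725 genes (38.7%) were called, 17.3% of all genes higher in oviduct and 21.5% higher in uterus.

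Each gene was then placed by its calls in both treatments and by the interaction, which is the tissue difference in E2 mice minus that in oil mice. The interaction was called for 2288 genes (11.5%), toward oviduct for 5.77% of all genes and toward uterus for 5.71%. A tissue difference remained, called in both treatments in the same direction, for 4476 genes (22.4%), 2194 (11.0%) higher in oviduct and 2282 (11.4%) higher in uterus. It arose for 568 genes (2.85%), meaning that it was called in E2 mice only and that the interaction was called in the same direction, and 366 of these (1.84% of all genes) were higher in uterus and 202 (1.01%) in oviduct. Without E2 oviduct replicate 3 the number of arising genes was 372. A difference closed, being called in oil mice only with an opposing interaction, for 897 genes (4.5%), of which 540 (2.71%) had been higher in uterus and 357 (1.79%) in oviduct. It reversed for 224 genes (1.12%), 161 of them (0.808%) now higher in uterus and 63 (0.316%) now higher in oviduct.

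Among arising, closing and reversing genes, the E2 and oil means lay farther apart in uterus than in oviduct for most. The absolute E2-minus-oil difference was larger in uterus for 528 of the 568 arising genes, 864 of the 897 closing genes and 221 of the 224 reversing genes. Its median was 0.59 in uterus and 0.10 in oviduct for arising genes, and 0.97 and 0.12 for reversing genes. Remaining genes with a called interaction, 146 wider and 436 narrower in E2 mice, are not in these counts. A further 1525 genes were called in E2 mice alone without an interaction call, and are not counted as arising. Without replicate 3 of both oil groups, 4034 of the 4476 remaining genes (90.1%), 443 of the 568 arising genes (78.0%), 641 of the 897 closing genes (71.5%) and 182 of the 224 reversing genes (81.2%) stayed in their class.

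**Figure D1:**
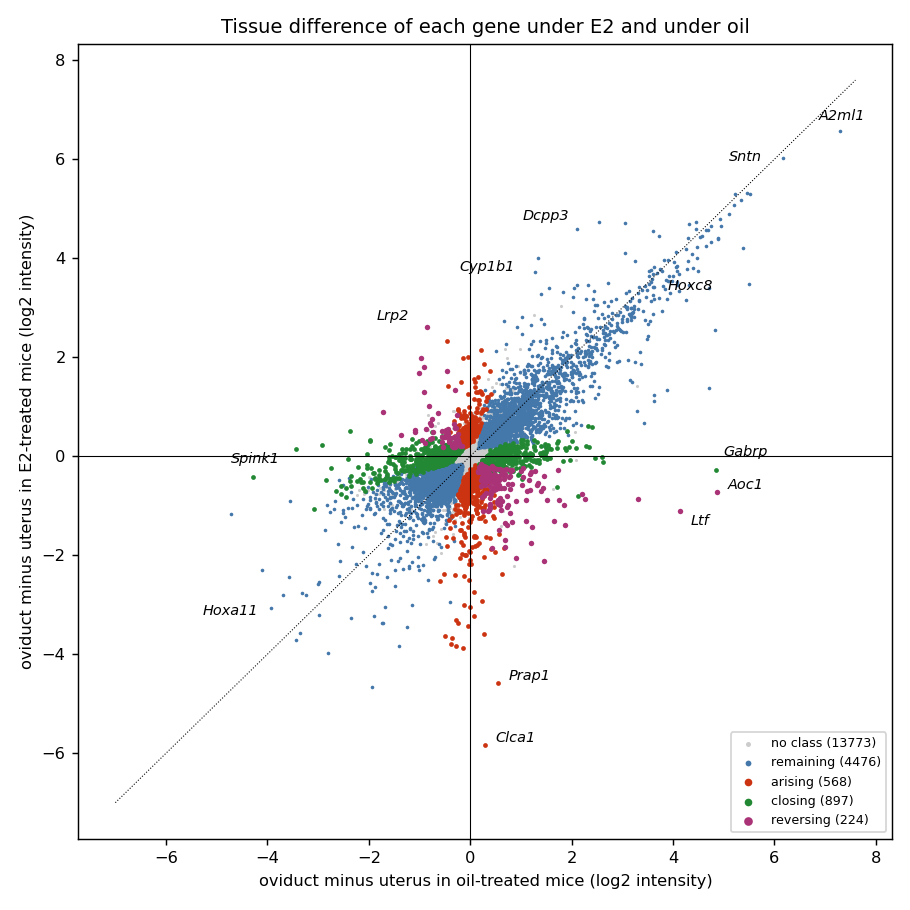
Tissue difference in E2 mice (vertical axis, oviduct minus uterus, log2) against the same difference in oil mice (horizontal axis), 1 point per gene, coloured by class. Sntn sits far out near the diagonal with a difference of 6.03 in E2 mice, Clca1 lies near 0 on the horizontal axis and at -5.84 on the vertical, and Gabrp lies at 4.84 in oil mice and near 0 in E2 mice.

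Motile cilia genes held many of the wide differences toward oviduct in E2 mice, and 4 of the 10 widest. Sntn, a protein of the tips of motile cilia, read 10.33, 10.48 and 10.41 in E2 oviduct and 4.38, 4.27 and 4.47 in E2 uterus. All oviduct arrays were high and all uterus arrays lay in the range of Y-linked background. The difference was 6.03 (SE 0.23, adjusted p = 1.1e-08), a 65.3-fold higher intensity in oviduct, against 6.18 in oil mice.

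The promoters of 3 cilia genes are shown because they hold a motif of the factors that switch such genes on. They are the 250 bases before the RefSeq start (build GRCm38.p6) of the 3 motile cilia genes with the largest tissue difference among those holding it, and capitals mark GTTGCCA or its reverse complement TGGCAAC, a core of the X-box bound by RFX factors.
Sntn (chr14:13670626-13670875, plus strand): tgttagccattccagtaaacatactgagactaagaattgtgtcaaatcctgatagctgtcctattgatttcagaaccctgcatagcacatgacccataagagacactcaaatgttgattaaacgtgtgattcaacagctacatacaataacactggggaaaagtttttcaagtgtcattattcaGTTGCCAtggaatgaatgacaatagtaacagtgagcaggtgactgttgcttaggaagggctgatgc
Cfap44 (chr16:44394549-44394798, plus strand): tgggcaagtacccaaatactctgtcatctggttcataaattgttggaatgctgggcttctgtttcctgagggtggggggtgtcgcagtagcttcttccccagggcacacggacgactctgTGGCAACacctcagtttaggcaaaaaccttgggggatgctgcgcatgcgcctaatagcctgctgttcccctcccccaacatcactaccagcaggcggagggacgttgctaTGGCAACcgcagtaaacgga
Cdhr3 (chr12:33092876-33093125, minus strand): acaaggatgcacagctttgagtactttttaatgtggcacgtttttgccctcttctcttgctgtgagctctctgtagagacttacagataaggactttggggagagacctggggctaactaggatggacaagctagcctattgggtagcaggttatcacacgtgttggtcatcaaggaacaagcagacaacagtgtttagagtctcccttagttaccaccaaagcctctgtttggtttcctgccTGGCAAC
In windows of 250 bases before to 50 bases after the start, searched on both strands, 10 of 39 motile cilia promoters (25.6%) held it, against 632 of the 15614 promoters of measured genes (4.05%). The forkhead motif TGTTTAC, the kind bound by FOXJ1, was found in 4 of 39 (10.3%) against 480 of all (3.07%). A match describes these letters alone and not binding.

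All gene lists used here were chosen with earlier results of these data known, so their counts beside all genes are not independent evidence. Of 46 measured genes of the motile cilia list, 42 were higher in oviduct in E2 mice, beside 15.2% of all genes. By limma 0 were higher in uterus (also 0 at an unadjusted p below 0.05), beside 18.9% of all genes. The median difference of the list was 2.57, against -0.04 for all genes. In 45 of the 46 all oviduct arrays lay above all uterus arrays, beside 21.1% of all genes. In oil mice 45 were called higher in oviduct, beside 17.3% of all genes, with a median of 2.84. Rsph4a, a radial spoke head protein, stood 5.33 higher in oviduct (SE 0.18, adjusted p = 4e-09), and the adenylate kinase Ak7, needed for ciliary movement, 4.90 (SE 0.22). Cfap44, an axonemal protein, stood 4.80 higher (SE 0.24), and the cadherin-related Cdhr3, made by ciliated cells, read 10.31, 10.34 and 10.31 in oviduct against 5.86, 5.80 and 5.37 in uterus. For all 4 genes the arrays of a tissue lay close together and the tissues far apart.

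Regulators of the ciliated cell fate were measured as well. Foxj1, the forkhead factor that switches on motile cilia genes, read 8.20, 8.13 and 8.24 in E2 oviduct and 6.35, 6.73 and 6.58 in E2 uterus. Its difference was 1.64 (SE 0.26, adjusted p = 0.00041), against 1.89 in oil mice. Rfx2 and Rfx3, which bind X-boxes, stood 1.02 and 0.77 higher in oviduct. The uncalled members were Myb, Tekt2, Mcidas and Ccno, and Mcidas, an early switch of the program, read 7.01, 6.79 and 6.95 in oviduct against 6.54, 6.58 and 6.30 in uterus (0.44, SE 0.31, adjusted p = 0.32).

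Some cilia genes had a smaller tissue difference in E2 than in oil mice, with higher readings in E2 than in oil uterus. Dnah12, an axonemal dynein heavy chain, read 6.38, 6.48 and 6.96 in E2 uterus against a mean of 4.80 in oil uterus, and 10.01, 10.19 and 10.04 in E2 oviduct. Its tissue difference was 3.47 in E2 mice and 5.50 in oil mice (interaction -2.03, SE 0.30, adjusted p = 0.0012). Cfap206 followed, at 4.21 in E2 mice and 5.39 in oil mice (interaction -1.19, adjusted p = 0.0099). Dnah12, Cfap206, Rfx2, Rfx3 and Cdhr3 were chosen for naming after their values were seen.

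The other 6 of the 10 genes highest in oviduct relative to uterus included A2ml1, a protease inhibitor of the alpha-2-macroglobulin family, with 12.23, 12.33 and 12.20 in oviduct against 5.54, 6.03 and 5.49 in uterus. Its difference of 6.57 (SE 0.15, adjusted p = 2e-10) was the largest of all genes whose arrays did not overlap. Stoml3 (5.30, SE 0.17), Fam216b (5.29, SE 0.21), Fndc7 (5.18, SE 0.07), Agr3, a disulfide isomerase of ciliated cells (5.08, SE 0.18), and Fam183b (4.73, SE 0.13) completed the group. All 10 were remaining genes.

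**Figure D2:**
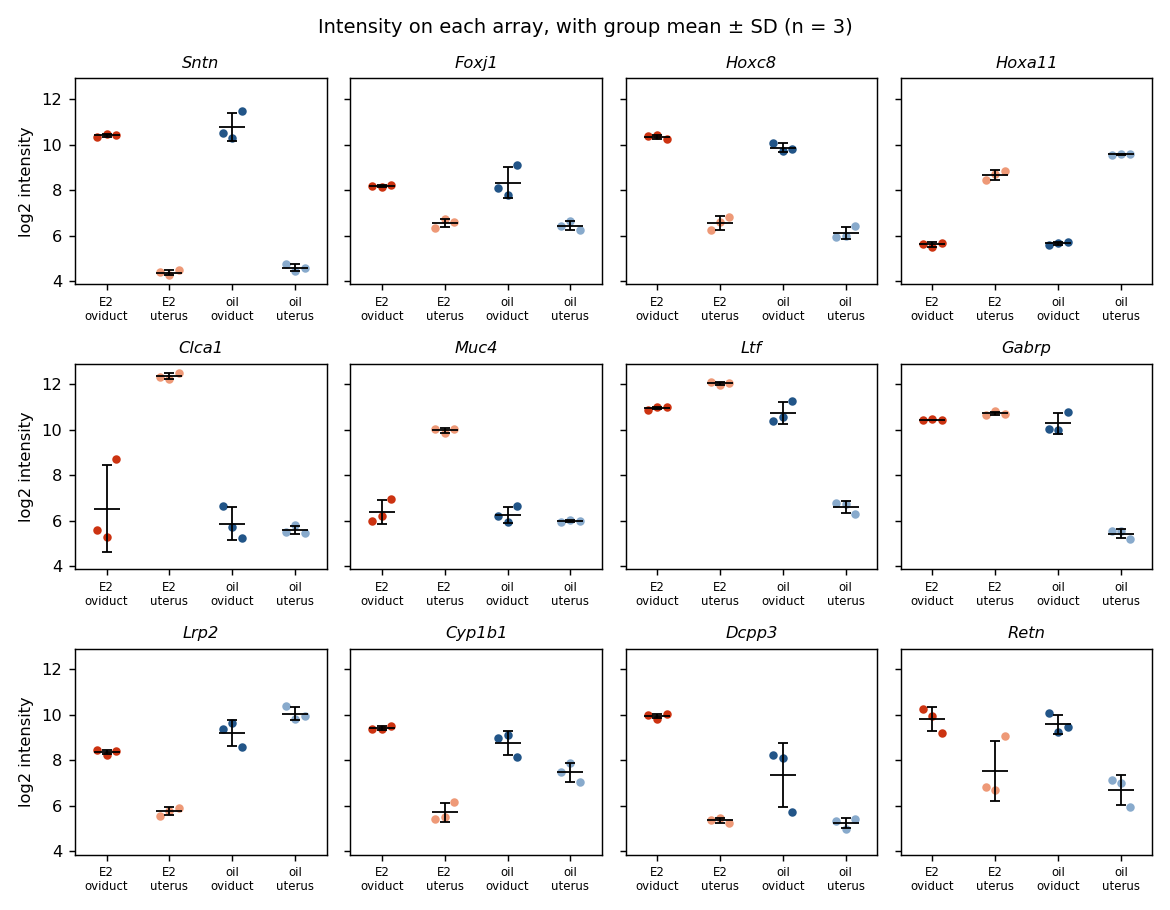
Log2 intensity on each of the 12 arrays for 12 genes, with points for single arrays and bars for the group mean and SD (n = 3). Sntn, Foxj1 and Hoxc8 are higher in oviduct under both treatments, Hoxa11 is higher in uterus under both, and Clca1, Muc4, Ltf and Gabrp are low in oil uterus and high in E2 uterus.

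Hox genes, transcription factors that pattern the embryonic axis and the ducts along it, split by position within the HoxA and HoxC clusters. Of 33 Hox genes measured, 13 were higher in oviduct and 7 higher in uterus in E2 mice, beside 15.2% and 18.9% of all genes. Of these 20, 19 were remaining genes, as were 4476 of all 6793 genes called in E2 mice. Among paralog groups 1 to 8, 11 of 20 genes were higher in oviduct and 1, Hoxd4, was higher in uterus, with a median of 0.74. Among groups 9 to 13, 2 of 13 (Hoxc9 and Hoxc10) were higher in oviduct and 6 were higher in uterus, with a median of -0.15.

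Hoxc8 had the widest difference toward oviduct, with 10.38, 10.40 and 10.26 in oviduct and 6.24, 6.59 and 6.83 in uterus. That is a 13.9-fold difference (3.79, SE 0.16, adjusted p = 2.2e-08), against 3.74 in oil mice. In the HoxA cluster, the 6 measured genes from Hoxa2 to Hoxa7 were higher in oviduct by 1.08 to 2.87. Hoxa9 read 8.66, 8.98 and 8.72 against 8.82, 8.95 and 9.00 and was not called. The next genes, Hoxa10 and Hoxa11, were higher in uterus, and Hoxa13 was not called (-0.016, SE 0.105). Hoxa10, needed for implantation, read 6.71, 7.01 and 6.84 in oviduct and 8.88, 9.01 and 9.00 in uterus (-2.11, SE 0.11, adjusted p = 1.1e-07). Hoxa11, which shares that role, read 5.65, 5.50 and 5.68 against 8.45, 8.70 and 8.86.

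Hoxa11 was 8.33-fold higher in uterus in E2 mice (-3.06, SE 0.10), and its difference in oil mice was wider at -3.92 (interaction 0.87, SE 0.14, adjusted p = 0.0020). The same held for Hoxd11, at -2.80 in E2 mice and -3.69 in oil mice (interaction 0.89, adjusted p = 0.0092). Hoxd10 stood at -2.54 and had no interaction call. Every called HoxD gene (Hoxd4, Hoxd9, Hoxd10 and Hoxd11) was higher in uterus. Of the 7 measured HoxB genes 1 was called, Hoxb2 at 0.39 toward oviduct.

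**Figure D3:**
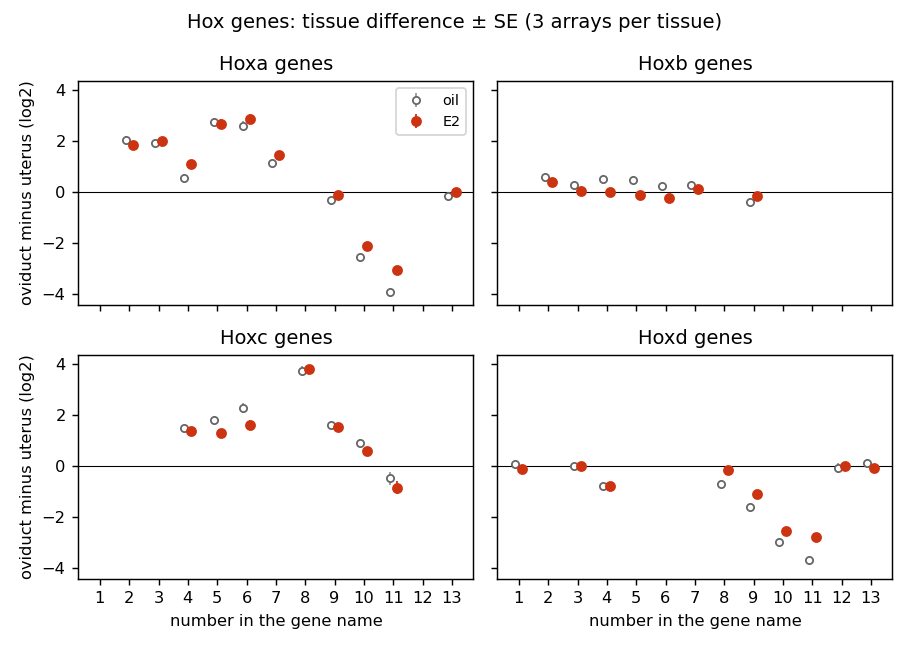
Tissue difference in E2 mice and in oil mice (log2, oviduct minus uterus, bars are SE) for the 33 measured Hox genes, ordered by cluster and paralog number. HoxA members run from 2.87 at Hoxa6 to -3.06 at Hoxa11, with the same sign under both treatments for each called member of this cluster.

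Genes of miRNAs lying within these clusters were read on the same arrays. They were chosen after their values were seen, and the sources do not say whether precursor or mature RNA gave the signal. Mature sequences from RefSeq are shown, with the seed (bases 2 to 8) in capitals, for the genes whose values follow, grouped by shared seed where they share one.
miR-10b-5p: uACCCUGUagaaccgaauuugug
miR-100-5p: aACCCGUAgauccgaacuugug
miR-196b-5p: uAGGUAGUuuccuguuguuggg
miR-181a-5p: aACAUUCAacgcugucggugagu
miR-181b-5p: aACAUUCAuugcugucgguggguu
miR-135a-5p: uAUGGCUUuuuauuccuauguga
miR-218-5p: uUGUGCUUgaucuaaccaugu
Mir10b, which overlaps Hoxd3 and Hoxd4 in the gene table, read 4.01, 4.25 and 4.18 in E2 oviduct and 6.44, 6.24 and 6.63 in E2 uterus (-2.29, SE 0.16, adjusted p = 9.3e-07). All uterus arrays lay above all oviduct arrays, and the difference in oil mice was -1.01 (interaction -1.28, adjusted p = 0.0041). Mir196b, which lies between Hoxa9 and Hoxa10, read 6.64, 6.51 and 6.58 against 7.18, 7.47 and 7.61 (-0.85, SE 0.18, adjusted p = 0.0035). Its direction was that of Hoxa10 and not of Hoxa7.

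Elsewhere in the genome, Mir181b-1 read 5.57, 5.57 and 5.60 in oviduct and 7.22, 7.39 and 7.50 in uterus (-1.79, SE 0.09, adjusted p = 6.1e-08), and Mir181a-1, with the same seed, stood at -1.52. Toward oviduct, Mir135a-2 read 5.15, 5.22 and 5.43 against 2.67, 2.78 and 2.5 (2.62, SE 0.23, adjusted p = 6.1e-06). Mir100 stood 1.29 higher in oviduct and Mir218-1 1.24 higher. Mir218-2, a second miR-218 gene, stood at -0.06 (limma adjusted p = 0.77), after -0.68 in oil mice, and was closing. Over the 296 measured miRNA genes, 10 (3.38%) were higher in oviduct and 51 (17.2%) in uterus, beside 15.2% and 18.9% of all genes. Of these 61 calls, 53 had both group means below log2 7.5, the highest reading of the Y-linked Sry, so the size of these folds is uncertain.

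Of 28 other factors that pattern the Müllerian ducts, 7 were higher in oviduct and 5 in uterus, beside 15.2% and 18.9% of all genes. The first count was 4 without E2 oviduct replicate 1 or E2 uterus replicate 2, and the second 8 with array weights. Tbx2, a T-box repressor, read 9.27, 9.11 and 9.24 in oviduct and 7.06, 7.02 and 6.92 in uterus (2.21, SE 0.08, adjusted p = 6.1e-09). Msx1 (-1.36, SE 0.15) and Hand2, the stromal factor through which progesterone restrains epithelial growth (-0.83, SE 0.07), were higher in uterus. Pax8, an epithelial factor, read 10.00, 9.95 and 9.93 against 9.52, 9.36 and 9.55. Its call at 0.48 (adjusted p = 0.018) ended without E2 oviduct replicate 1 (0.46) or E2 uterus replicate 2 (0.42).

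Genes known to be induced by E2 in uterus were mostly higher in uterus in E2 mice alone. Of 30 measured, 24 were higher in uterus and 2 higher in oviduct in E2 mice, beside 18.9% and 15.2% of all genes. The median of the list was -1.21. In oil mice 11 had been higher in oviduct and 2 higher in uterus, beside 17.3% and 21.5% of all genes, with a median of 0.28. The class was arising for 15 and reversing for 7, beside 2.85% and 1.12% of all genes. Like the other lists, this list was assembled with results of these arrays known, so its direction is not independent evidence.

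In bulk tissue, fewer cells of a type and less RNA per cell cannot be told apart. Per array, the median level of the epithelial list was 9.25 to 9.31 in E2 oviduct and 9.40 to 9.58 in E2 uterus, against 9.31 to 9.40 in oil oviduct and 8.13 to 8.28 in oil uterus. This shift of the uterine epithelial level accompanies the uterine rises described next, and its part in them was not tested.

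Clca1, a secreted regulator of chloride currents in mucus-making epithelia, read 5.57, 5.26 and 8.72 in E2 oviduct and 12.34, 12.24 and 12.50 in E2 uterus. One oviduct array, replicate 3, stood more than 3 log2 units above the other oviduct arrays, yet far below uterus. The difference was -5.84 (SE 0.70, adjusted p = 5.8e-05), a 57.4-fold higher intensity in uterus, and was 0.29 in oil mice (interaction -6.13, SE 0.99, adjusted p = 0.0023). The difference of Clca1 in E2 mice was -6.94 without that array and -5.21 without E2 oviduct replicate 2. Prap1, a secreted proline-rich acidic protein, showed the same array pattern, with 6.12, 6.11 and 7.66 in oviduct against 11.33, 11.05 and 11.28 in uterus. It was 24.1-fold higher in uterus (-4.59, SE 0.32, adjusted p = 7.8e-07) after 0.55 in oil mice.

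Of the 10 genes highest in uterus relative to oviduct, 6 were arising genes and 4 remaining ones. The remaining genes were Sprr2f of the near-identical Sprr2 copies (-4.67, SE 0.51), Ctla2a, a protease inhibitor with close copies (-3.97, SE 0.22), the adhesion receptor Adgrg7 (-3.83, SE 0.35) and the sulfotransferase Sult1d1. Sult1d1 read 6.09, 6.16 and 7.56 in oviduct and 10.31, 10.29 and 10.35 in uterus (-3.71, SE 0.41, adjusted p = 3.1e-05, against -3.43 in oil mice). The Sprr2f difference was -5.29 without E2 oviduct replicate 3, and without replicate 3 of both oil groups Sprr2f was arising.

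Mucosal barrier and defence genes shifted toward uterus in count. Of 25 measured, 13 were higher in uterus and 4 in oviduct in E2 mice (median -0.63), beside 18.9% and 15.2% of all genes. Oil mice had 3 and 9, beside 21.5% and 17.3% of all genes. Muc4, a membrane mucin, read 5.99, 6.20 and 6.97 in oviduct and 10.05, 9.86 and 10.04 in uterus (-3.60, SE 0.23, adjusted p = 3.4e-07, against 0.27 in oil mice). Pigr, which carries antibodies across epithelium, read 6.43, 6.36 and 6.99 against 10.49, 9.94 and 10.25 (-3.63, SE 0.20, against -0.49 in oil mice). Both were low in every oviduct array and high in every uterus array. The defensin Defb1 was 5.69-fold higher in uterus (-2.51, SE 0.14, adjusted p = 1.8e-07), from -0.02 in oil mice.

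Not all mucosal genes took that direction. Agr2, which folds mucins, remained higher in oviduct at 9.77, 9.97 and 9.88 against 8.04, 7.97 and 8.19 (1.81, SE 0.14, adjusted p = 1.3e-06), as did Spdef, a factor of goblet-like secretory cells (1.31, SE 0.13). The mucin Muc16 stood 0.83 higher in oviduct (SE 0.20, adjusted p = 0.0057).

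Among other single genes that arose toward uterus, Gjb2, a gap junction protein, read 5.78, 5.33 and 6.40 in oviduct and 9.61, 9.85 and 9.70 in uterus (-3.88, SE 0.21, adjusted p = 1.1e-07, against -0.15 in oil mice). Trpv6, an epithelial calcium channel, read 5.52, 5.38 and 6.11 against 9.50, 9.16 and 9.84 (-3.83, SE 0.20, against -0.27 in oil mice). Cfb, complement factor B, read 7.17, 6.87 and 7.92 against 11.27, 10.92 and 11.13 (-3.79, SE 0.20, against -0.39 in oil mice). None of the 3 was called between the tissues in oil mice, and in E2 mice the tissues were 13.8- to 14.8-fold apart.

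The cytokine Il1a (-3.67, SE 0.31, adjusted p = 3.7e-06) and the mucosal chemokine Cxcl17 (-3.05, SE 0.19, adjusted p = 3.4e-07) arose as well, with Cxcl17 at 6.79, 6.58 and 7.14 in oviduct and 9.89, 9.73 and 10.05 in uterus. The matrix protease Mmp11 arose at -1.94 (SE 0.09, adjusted p = 3.1e-08), and Sprr2b, of a cornified envelope family with near-identical copies that the probes may not separate, at -3.30 (SE 0.16). Of 38 chemokines and cytokines measured, 8 were higher in each tissue, near the 15.2% and 18.9% of all genes. The oviduct count was 4 without E2 oviduct replicate 1 or E2 uterus replicate 3, and the uterine count 13 with array weights.

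In the other direction, 202 genes arose as higher in oviduct. Sbspon, a protein with a thrombospondin repeat, read 9.74, 9.78 and 9.71 in oviduct and 7.32, 7.45 and 7.48 in uterus (2.33, SE 0.17, adjusted p = 9.6e-07), against a mean of 9.89 in oil uterus. Npl, which splits sialic acid, read 8.72, 8.69 and 8.55 against 6.56, 6.69 and 6.74 (1.99, SE 0.21). Npl had been near 10 in both tissues of oil mice, with means of 10.21 in oviduct and 10.36 in uterus.

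Ccn2, a matricellular growth factor, read 10.46, 10.40 and 10.01 in oviduct and 7.98, 8.46 and 8.41 in uterus (2.01, SE 0.24, adjusted p = 5e-05, against -0.04 in oil mice). Chst2, a sulfotransferase, arose at 1.5 (SE 0.10), the glucose transporter Slc2a3 at 2.15 (SE 0.16) and Hhip, which binds and restrains hedgehog ligands, at 1.42 (SE 0.28). The alarmin Il33 read 7.15, 7.14 and 7.25 against 5.86, 5.80 and 6.12 (1.25, SE 0.12, adjusted p = 1e-05, against -0.04 in oil mice). Without replicate 3 of both oil groups, Slc2a3 was called in oil mice too and counted as remaining.

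The widest interactions among reversing genes were those of Aoc1, Ltf and Lcn2, which oil mice had higher in oviduct. Ltf, the antimicrobial lactoferrin and a classic E2 target, read 10.88, 10.99 and 10.98 in E2 oviduct and 12.12, 11.99 and 12.05 in E2 uterus. Every uterus array lay above every oviduct array (-1.10, SE 0.19, adjusted p = 0.00091), while in oil mice oviduct had been higher by 4.13 (interaction -5.23, SE 0.27, adjusted p = 2.2e-06). Aoc1, a diamine oxidase that degrades histamine, went from 4.87 in oil mice to -0.73 in E2 mice (SE 0.16, adjusted p = 0.0038), with 10.48, 10.53 and 10.64 in oviduct and 11.47, 10.82 and 11.55 in uterus.

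Lcn2, which withholds iron from bacteria, moved from 3.31 to -0.86 (SE 0.21, adjusted p = 0.0085). Muc1, a membrane mucin whose loss accompanies receptivity, read 8.88, 8.88 and 9.13 in oviduct and 10.72, 10.51 and 10.72 in uterus (-1.69, SE 0.12, adjusted p = 6.9e-07, against 0.68 in oil mice). Wfdc2, a secreted protease inhibitor, stood at -1.40 (SE 0.12, against 0.73 in oil mice), Slc27a2, a fatty acid transporter, at -2.12 (SE 0.23, against 1.46 in oil mice) and the interleukin 1 family member Il1f8 at -1.40 (SE 0.18, against 1.88 in oil mice). The chemokine Ccl28 stood at -1.76 (SE 0.32, adjusted p = 0.0011, against 1.20 in oil mice), and without replicate 3 of both oil groups it was arising.

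Among the 63 genes that turned from uterus-higher to oviduct-higher were Lrp2 and Ptch1 of the progesterone-dependent list. Lrp2, the endocytic receptor megalin, read 8.44, 8.25 and 8.40 in E2 oviduct and 5.57, 5.79 and 5.91 in E2 uterus (2.61, SE 0.23, adjusted p = 5.6e-06), a 6.09-fold difference. In oil mice the uterus had the higher mean, 10.06 against 9.21 (interaction 3.46, SE 0.33, adjusted p = 6e-05). Ndp, which encodes the FZD4 ligand norrin, read 8.47, 8.75 and 8.53 against 6.44, 6.67 and 6.68 (1.99, SE 0.12, against -0.97 in oil mice). In neither gene did an oviduct array reach down to the uterine range.

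Ddah1, which breaks down a natural blocker of nitric oxide synthases, read 7.95, 7.94 and 7.99 in oviduct and 6.02, 6.24 and 6.20 in uterus (1.80, SE 0.08, adjusted p = 2.2e-08, against -0.91 in oil mice). Syn2 (1.68, SE 0.23), Wfdc1 (1.30, SE 0.11) and the amine oxidase Maob (0.90, SE 0.21) reversed in the same way. The hedgehog receptor Ptch1, a target of Indian hedgehog signalling, stood at 1.34 (SE 0.09, adjusted p = 3.6e-07), after -0.30 in oil mice, and was arising without replicate 3 of both oil groups. Gli1, another hedgehog target, named after its values were seen, stood at 0.43 (SE 0.11, adjusted p = 0.010) after -1.37.

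Differences also closed, among them those of general epithelial markers. Of 17 epithelial genes, 15 were higher in oviduct in oil mice (median 1.20), beside 17.3% of all genes, and 7 were closing, beside 4.5%. In E2 mice 5 were higher in oviduct and 3 in uterus (median 0.18), beside 15.2% and 18.9% of all genes. The uterine count was 5 without replicate 3 of both oil groups. Krt19, a simple-epithelium keratin, read 10.00, 9.89 and 10.04 in E2 oviduct and 9.70, 9.74 and 9.89 in E2 uterus (0.20, SE 0.12, adjusted p = 0.22), after 2.29 in oil mice. Epcam, an adhesion protein of epithelia, stood at -0.09 (oil 1.04) and Cdh1, E-cadherin, at 0.03 (oil 0.93). These 3 were named after their values were seen.

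Within the epithelial list, Ehf, an epithelial ETS factor, remained higher in oviduct (1.46, SE 0.09, adjusted p = 2.6e-07), while the related Elf3 (-0.88, SE 0.15, against 1.75 in oil mice) and Krt7 (-0.65, SE 0.16, against 1.43 in oil mice) reversed.

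Single genes closed from wider differences. Gabrp, a GABA receptor subunit of epithelia, read 10.42, 10.46 and 10.43 in E2 oviduct and 10.65, 10.81 and 10.70 in E2 uterus (-0.29, SE 0.18, adjusted p = 0.26), after 4.84 in oil mice (interaction -5.13, SE 0.25, adjusted p = 1.4e-06). The uterine intensity was 1.22-fold that of oviduct in E2 mice. Slc7a11, the cystine transporter, closed from 2.62 to -0.12 (SE 0.23) and Myb from 2.60 to -0.01 (SE 0.32). The complement inhibitor Cfi went from 2.12 to -0.81 (SE 0.40, adjusted p = 0.15). Without replicate 3 of both oil groups, the E2 differences of Gabrp and Cfi passed the test and these genes were reversing.

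Other single genes closed from the uterine side, while 4 of the 17 endometrial gland genes were closing, beside 4.5% of all genes. Spink1, a trypsin inhibitor of glands, read 3.01, 3.16 and 3.07 in E2 oviduct and 3.41, 3.72 and 3.40 in E2 uterus, both in the background range, after a difference of -4.29 in oil mice (interaction 3.87, SE 0.34, adjusted p = 3.1e-05). Has2, which makes hyaluronan, read 5.79, 5.81 and 5.54 against 5.82, 5.85 and 6.17 (-0.23, SE 0.13, adjusted p = 0.22), after -2.74. Cxcl15, a gland chemokine, went from -2.93 to 0.24 (SE 0.35) and Il13ra2, a decoy receptor, from -2.38 to 0.51 (SE 0.30). The imprinted Mest went from -2.84 to -0.48 (SE 0.18). Without replicate 3 of both oil groups, Spink1 and Mest were called in E2 mice and counted as remaining. The E2 difference of Mest was also called with E2 arrays alone, the replicate block, either intensity filter, quantile normalization or array weights.

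Of 29 cell cycle genes, 20 had a called interaction, each toward oviduct, beside 5.77% of all genes. In oil mice 29 of 29 were higher in uterus (median -1.66), beside 21.5% of all genes. In E2 mice 11 were (median -0.50), beside 18.9%, with 0 higher in oviduct by limma (also 0 at an unadjusted p below 0.05). Of the list, 12 were closing, beside 4.5% of all genes. The E2 count was 7 without E2 oviduct replicate 2 or E2 uterus replicate 3, and 22 without replicate 3 of both oil groups. Mki67, a mark of dividing cells, read 7.08, 6.44 and 6.90 in oviduct and 8.09, 8.17 and 8.62 in uterus (-1.49, SE 0.27, adjusted p = 0.0013), after -2.86 in oil mice.

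**Figure D4:**
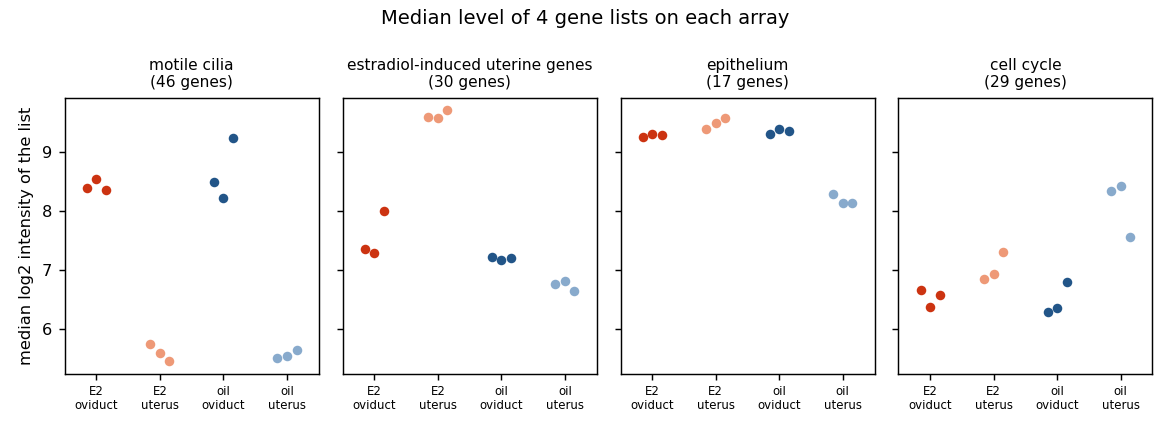
Median log2 intensity of 4 gene lists on each of the 12 arrays. Motile cilia genes separate the tissues under both treatments, E2-induced genes lie between 9.58 and 9.71 in E2 uterus and at most at 8.0 elsewhere, epithelial genes are lowest in oil uterus, and cell cycle genes are highest in oil uterus.

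Of 23 oviduct secretory markers measured, 7 were higher in oviduct and 11 in uterus in E2 mice, beside 15.2% and 18.9% of all genes. In oil mice these counts were 16 and 2, beside 17.3% and 21.5% of all genes. Of the list, 8 reversed and 9 remained. The interaction was called toward uterus for 12 and toward oviduct for 3 (Scgb1c1, Dcpp2 and Dcpp3), beside 5.71% and 5.77% of all genes. The interaction call of Dcpp3 ended when any 1 of 9 arrays was left out (2.41 to 2.61). It also ended with the replicate block or a trended variance (2.49 in both). Scgb1c1, a secretoglobin, read 9.12, 8.68 and 9.02 in oviduct and 6.42, 6.07 and 6.01 in uterus (2.77, SE 0.17, adjusted p = 3.2e-07), wider than the 1.40 of oil mice (interaction 1.37, SE 0.24, adjusted p = 0.0037). Dcpp2, of a secreted family that acts on the embryo, read 6.84, 7.64 and 7.71 against 3.06, 3.68 and 3.41 (4.01, SE 0.34, against 1.33 in oil mice; interaction adjusted p = 0.0038).

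Dcpp3 read 9.99, 9.84 and 10.03 in oviduct and 5.36, 5.46 and 5.25 in uterus (4.59, SE 0.49, adjusted p = 2.3e-05), and Dcpp1 stood at 3.45 (SE 0.62) without an interaction call (adjusted p = 0.52). The Dcpp genes are near-identical copies, so the probes may not separate them. Klk1b1, a tissue kallikrein with close copies, widened from 0.52 to 2.13 (SE 0.14, interaction adjusted p = 0.00032). Among genes of the cornified envelope and kallikrein list, 5 of 25 were higher in oviduct and 8 in uterus, beside 15.2% and 18.9% of all genes. The first count was 3 without E2 oviduct replicate 1 or E2 uterus replicate 2. The second was 5 without E2 oviduct replicate 2 or E2 uterus replicate 1.

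Endometrial gland genes were not all higher in uterus. Of 17 measured, 6 were higher in oviduct and 2 in uterus in E2 mice, beside 15.2% and 18.9% of all genes. The second count was 4 without oil uterus replicate 3. Calb1, a calcium-binding protein, read 11.47, 11.59 and 11.52 in oviduct and 9.50, 8.89 and 8.21 in uterus (2.66, SE 0.27, adjusted p = 1.4e-05), and Wfdc15b stood at 2.40 (SE 0.09). The uterine arrays were spread over more than 1 log2 unit for Calb1, but none came near oviduct.

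Receptors for the ovarian steroids took both directions. Esr1, the receptor that carries most E2 action here, read 11.03, 11.04 and 10.96 in oviduct and 10.66, 10.70 and 10.74 in uterus (0.30, SE 0.06, adjusted p = 0.0014), near the 0.36 of oil mice. Pgr, the progesterone receptor, read 8.55, 8.77 and 8.80 against 9.39, 9.45 and 9.41 (-0.71, SE 0.15, adjusted p = 0.0038, against -0.78 in oil mice). Esr2 read 5.43, 5.26 and 5.41 against 5.36, 5.36 and 5.33, in the background range in both (0.01, SE 0.08).

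Among steroid-converting enzymes, Cyp1b1, which hydroxylates E2, read 9.37, 9.40 and 9.51 in oviduct and 5.42, 5.53 and 6.18 in uterus, a 13.1-fold difference (3.71, SE 0.28, adjusted p = 1.3e-06), wider than the 1.28 of oil mice (interaction 2.44, SE 0.39, adjusted p = 0.0021). Hsd11b2, which inactivates glucocorticoids, stayed higher in uterus at 9.47, 9.33 and 9.59 against 7.11, 6.81 and 7.16 (-2.44, SE 0.11, against -3.57 in oil mice; interaction adjusted p = 0.00066). Of 24 steroid receptor and enzyme genes, 4 were higher in oviduct and 6 in uterus, shares near the 15.2% and 18.9% of all genes.

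Of 25 progesterone-dependent uterine genes, 15 were higher in uterus and 3 in oviduct in oil mice, beside 21.5% and 17.3% of all genes. In E2 mice these counts were 10 and 6, beside 18.9% and 15.2% of all genes. The interaction was called toward oviduct for 11 and toward uterus for 1, beside 5.77% and 5.71% of all genes. Ihh, the hedgehog ligand that uterine epithelium makes before implantation, read 7.54, 7.41 and 7.39 in E2 oviduct and 6.90, 6.65 and 6.36 in E2 uterus (0.81, SE 0.19, adjusted p = 0.0065), with no interaction call (0.60, SE 0.27, adjusted p = 0.21). Lif, the gland signal for implantation, read 5.41, 5.11 and 5.24 against 5.72, 5.70 and 5.79 (-0.48, SE 0.24, adjusted p = 0.15). Lif was called with E2 arrays alone, without oil uterus replicate 2 or 3, without replicate 3 of both oil groups, or with array weights.

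Of 45 growth factor genes, 13 were higher in oviduct and 11 in uterus, beside 15.2% and 18.9% of all genes. Fgf1 read 9.53, 9.62 and 9.49 in oviduct and 6.42, 6.90 and 7.61 in uterus (2.57, SE 0.24, adjusted p = 9.2e-06, against 2.39 in oil mice), and Fgf7, which acts on epithelium, stood at 1.36 (SE 0.14). Toward uterus, the receptor Egfr stood at -0.93 (SE 0.08, adjusted p = 4.3e-06), and Inhbb, an activin subunit, at -0.89 (SE 0.18) after 0.55 in oil mice.

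Of 41 Wnt pathway genes, 10 were higher in oviduct and 9 in uterus (15 with array weights), beside 15.2% and 18.9% of all genes. Wnt2b, a ligand, read 9.34, 9.20 and 9.16 in oviduct and 6.40, 6.75 and 7.18 in uterus (2.45, SE 0.18, adjusted p = 9.7e-07, against 1.91 in oil mice), and the secreted modulator Dkk3 stood at 1.24 (SE 0.16). Wnt7a, a ligand of the luminal epithelium, read 6.04, 6.29 and 6.11 against 7.26, 7.68 and 7.21 (-1.24, SE 0.19, adjusted p = 0.00030, against 0.47 in oil mice), which was arising with all arrays and reversing without replicate 3 of both oil groups. Rspo3, which strengthens Wnt signals, stood at -0.85 (SE 0.12), and the receptor Fzd2 at -0.69 (SE 0.06).

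Of 21 retinoid handling genes, 7 were higher in oviduct (4 without E2 uterus replicate 2) and 5 in uterus, beside 15.2% and 18.9% of all genes. Cyp26a1, which breaks retinoic acid down, read 8.46, 8.62 and 8.80 in oviduct and 5.22, 5.73 and 5.10 in uterus (3.27, SE 0.35, adjusted p = 2.2e-05, against 1.40 in oil mice). The synthesis enzymes took opposite sides. Aldh1a1 stood at 1.20 (SE 0.15, adjusted p = 7.5e-05) and Aldh1a2 at -1.20 (SE 0.15, adjusted p = 7.1e-05), with Aldh1a2 at -2.13 in oil mice.

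Ion and water transport genes, which set the luminal fluid, were higher in oviduct for 11 of 36 and higher in uterus for 11, beside 15.2% and 18.9% of all genes. Cftr, the chloride channel, read 8.73, 8.81 and 8.83 in E2 oviduct and 7.62, 7.49 and 7.92 in E2 uterus (1.11, SE 0.14, adjusted p = 6e-05), narrower than the 3.63 of oil mice (interaction -2.52, SE 0.19, adjusted p = 1.7e-05). Slc4a4, a bicarbonate cotransporter, widened from 0.65 to 1.61 (SE 0.09) and the chloride channel Ano1 from 0.63 to 1.46 (SE 0.09). Scnn1b, a subunit of the epithelial sodium channel, stood at -1.78 (SE 0.16, adjusted p = 7.1e-06), from -0.61 in oil mice.

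Signals on muscle tone were higher in oviduct for 6 of 34 genes and higher in uterus for 8, near the 15.2% and 18.9% of all genes. Lpar3, a lysophosphatidic acid receptor tied to embryo spacing, read 7.65, 7.55 and 7.68 in oviduct and 6.04, 6.0 and 5.76 in uterus (1.69, SE 0.11, adjusted p = 4.6e-07, against 0.71 in oil mice). Ptger3, a prostaglandin E receptor, read 6.60, 7.11 and 6.91 against 9.04, 8.94 and 9.17 (-2.17, SE 0.16, against -1.80 in oil mice), and the endothelin receptor Ednrb stood at -1.15 (SE 0.16). The oxytocin receptor Oxtr, named after its values were seen, stood at -0.46 (SE 0.12, adjusted p = 0.012) after 0.53 in oil mice (interaction -0.99, adjusted p = 0.0033).

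Markers of the tissue wall were more often called toward uterus. Of 19 smooth muscle genes, 10 were higher in uterus and 1, Kcnmb1, in oviduct in E2 mice, beside 18.9% and 15.2% of all genes, and 5 of the list were remaining. The first count was 6 without E2 oviduct replicate 1, and Kcnmb1 (0.63, adjusted p = 0.049) lost its call when any single E2 or oil oviduct array was left out (0.57 to 0.72), with the replicate block, and with other scalings or a trended variance. Synpo2, an actin-binding protein of muscle, read 9.27, 9.62 and 9.55 in oviduct and 10.62, 10.51 and 10.56 in uterus (-1.08, SE 0.11, adjusted p = 1.3e-05, against -0.73 in oil mice).

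Of 16 fibroblast and stromal genes 10 were higher in uterus and 1, Vim, in oviduct, beside 18.9% and 15.2% of all genes. Of 14 endothelial genes 11 were higher in uterus, beside 18.9% of all genes. Col6a3 stood at -1.22 (SE 0.11), the vessel receptor Tek at -0.81 (SE 0.12) and the lymphatic factor Prox1 at -0.84 (SE 0.13). Matrix and protease genes were higher in uterus for 20 of 35 (median -0.59), beside 18.9% of all genes, with Col6a2 at -1.05 (SE 0.07, adjusted p = 4.3e-07). Of the 35, 3 were higher in oviduct, beside 15.2% of all genes. That count was 1 without E2 oviduct replicate 3 or E2 uterus replicate 1 or 2.

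Markers of fat and serosal cells were higher in oviduct samples. All 7 adipocyte genes were called higher in oviduct (median 1.42), beside 15.2% of all genes. For only 2 of them did all oviduct arrays lie above all uterus arrays, beside 21.1% of all genes. The median level of the list was 8.59, 8.39 and 7.56 in E2 oviduct and 6.25, 5.97 and 7.85 in E2 uterus, so E2 uterus replicate 3 read above the lowest oviduct array. Retn, an adipocyte hormone, read 10.25, 9.94 and 9.21 against 6.85, 6.72 and 9.07 (2.25, SE 0.56, adjusted p = 0.0078), and its difference was 3.02 without E2 uterus replicate 3. The count of adipocyte calls was 2 without E2 oviduct replicate 1 or 2, and 1 without E2 uterus replicate 1 or 2.

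Of 7 mesothelial genes 5 were higher in oviduct (3 without E2 oviduct replicate 1 or E2 uterus replicate 1), beside 15.2% of all genes. Msln read 8.62, 8.46 and 8.33 against 6.96, 7.53 and 7.58 (1.12, SE 0.23, adjusted p = 0.0023). The part of fat and serosal cells in other differences was not tested. Of 12 ovary and corpus luteum genes limma called 0 in E2 mice (also 0 at an unadjusted p below 0.05), beside 34.1% of all genes. With array weights 3 were higher in uterus, and without replicate 3 of both oil groups 1 was higher in oviduct and 2 in uterus. The steroid carrier Star read 6.76, 6.86 and 6.94 in oviduct and 6.14, 6.18 and 6.63 in uterus, and was the gene called toward oviduct without those arrays (0.53).

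Lymphoid and natural killer markers were higher in uterus. Of 13, 9 were called higher in uterus, beside 18.9% of all genes, with a median of -0.93. The count was 3 among genes at or above the array median on at least 3 arrays. It was 1 among genes with a group mean of at least log2 8. The list median was 5.53, 5.41 and 5.33 on the E2 oviduct arrays, near the Y-linked level of 5.36. Nkg7, a granule protein of killer cells, read 6.36, 6.38 and 6.25 in oviduct and 8.49, 8.61 and 8.98 in uterus (-2.36, SE 0.36, adjusted p = 0.00033, against -1.93 in oil mice). The natural killer receptor Ncr1 read 4.81, 5.07 and 5.07 against 6.99, 7.21 and 7.29 (-2.18, SE 0.30, against -2.25 in oil mice). For both genes the uterine arrays formed a separate, higher group.

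Of 10 macrophage genes, 5 were higher in uterus, beside 18.9% of all genes. The count was 8 without replicate 3 of both oil groups or with the replicate block. The lysosomal Cd68 read 8.37, 8.03 and 8.08 in oviduct and 9.19, 8.91 and 9.15 in uterus (-0.92, SE 0.16, adjusted p = 0.00074, against 0.06 in oil mice), an arising difference. Of 10 neutrophil genes, 4 were higher in uterus, beside 18.9% of all genes, and 1 with only genes of a group mean of at least log2 8. Retnlg stood at -2.38 (SE 0.25, adjusted p = 2.3e-05, against -1.83 in oil mice). Of 7 B and plasma cell genes 1 was higher in each tissue, near the 15.2% and 18.9% of all genes. These were Mzb1 in oviduct (0.72, SE 0.11) and Sdc1 in uterus (-0.51, SE 0.08).

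Interferon and antigen presentation genes were higher in uterus for 11 of 24, beside 18.9% of all genes, with a median of -0.60. Toward oviduct limma called 0 (also 0 at an unadjusted p below 0.05), and 1 without replicate 3 of both oil groups. Mx1, an antiviral GTPase, read 5.18, 5.54 and 5.93 in oviduct and 7.05, 7.17 and 7.33 in uterus (-1.63, SE 0.20, adjusted p = 7e-05, against 0.12 in oil mice). Oas2, an antiviral sensor, stood at -1.57 (SE 0.28) without an interaction call. Complement genes were higher in uterus for 7 of 20 and in oviduct for 1, beside 18.9% and 15.2% of all genes. The latter was C7, at 1.55 (SE 0.26, adjusted p = 0.00065). The uterine count was 4 without E2 oviduct replicate 2 or E2 uterus replicate 2, and 11 without replicate 3 of both oil groups.

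**Figure D5:**
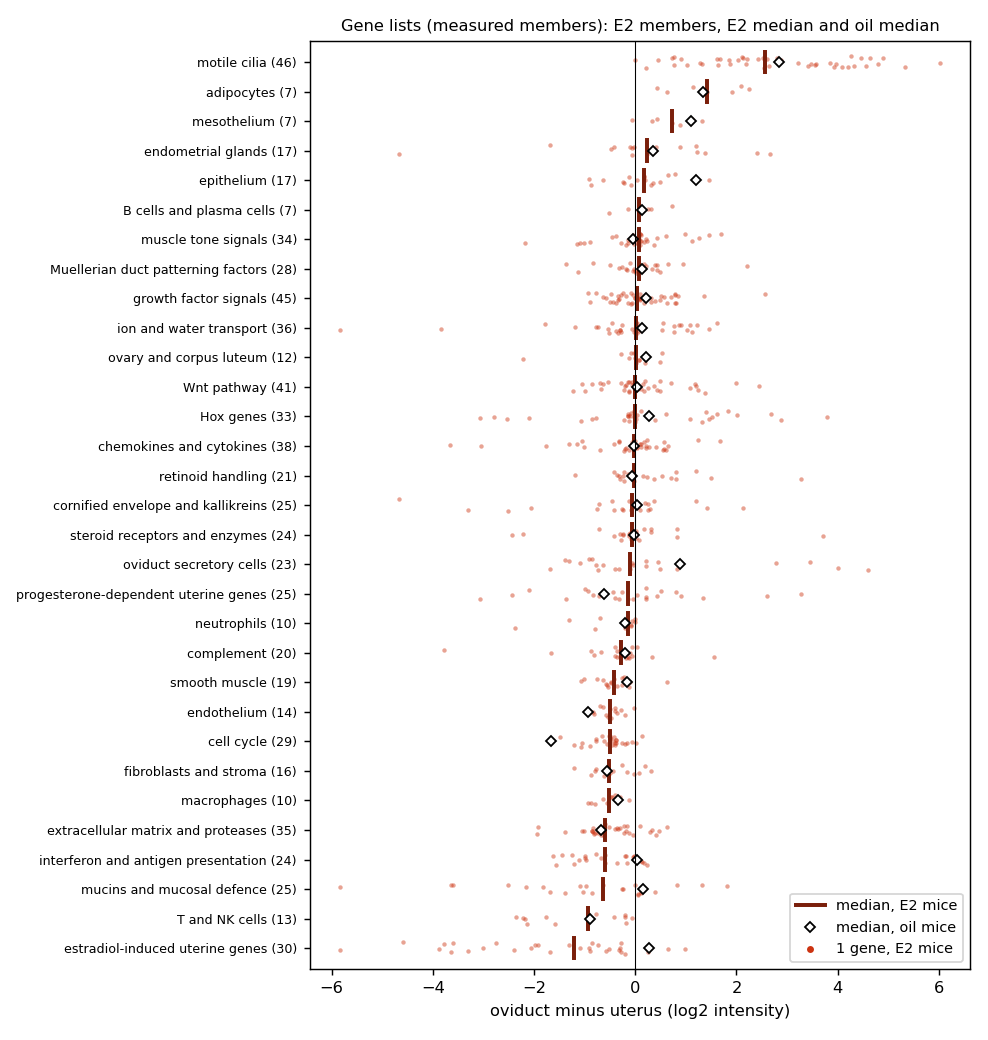
Tissue difference (horizontal axis, oviduct minus uterus, log2) of each measured member of the gene lists in E2 mice (points), with the list median in E2 mice (bars) and in oil mice (diamonds). The bar of the motile cilia list lies at 2.57, that of the E2-induced uterine genes at -1.21 with its diamond at 0.28, and that of the cell cycle list at -0.50 with its diamond at -1.66.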

How the data were processed

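RNA of flushed oviducts and uterine horns was extracted with TRIzol and hybridised to Affymetrix arrays, per the labels' protocols. The deposited table holds an RMA intensity per probe set and array, per the submitters' processing notes, which state no RMA version. The values proved linear where log2 values had been assumed when the tests were chosen, so log2 was taken first. Of 35556 probe sets, 21789 had a single gene symbol in the platform annotation (1621 had several, 12146 were unlisted), and 19938 genes were each represented by the probe set with the highest mean over 12 arrays. No intensity filter was applied. The number of arrays limits the precision.

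The fit, by limma 3.58.1 (R 4.3.3) with lmFit and eBayes, took in all 12 arrays and 4 group means, and its two-sided p-values were adjusted by Benjamini and Hochberg's method across the 19938 genes, with a threshold of 0.05. The script was tested on simulated data. The named genes were the 10 of each direction with the largest E2 difference called without overlap, the 6 of each direction with the largest interaction among arising, closing and reversing genes, up to 4 called members of each direction of 31 lists (669 of 723 listed genes measured) or 2 as values, and Esr1, Esr2, Pgr, Foxj1, Hoxa10, Hoxa11, Pax8, Ltf, Lif and Ihh. Members and lists were chosen with earlier results of these data known. Alternatives were other fits, filters, gene measures, scalings, log scales, variance models, array weights, a 2-fold limit, a replicate block and left-out arrays. Promoter and miRNA sequences are those of RefSeq (GRCm38.p6), matched by symbol.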

Additional observations from a re-analysis of the deposited data

Results flagged for a closer look

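The tissue difference itself differed between treatments for 2288 genes by the interaction test, and the genes with the widest interactions are given here as the difference in E2 mice minus that in oil mice (log2, limma). Among differences that arose toward uterus these were Clca1 (-6.13), Prap1 (-5.14), Muc4 (-3.86), Gjb2 (-3.73), Trpv6 (-3.56) and Cfb (-3.40). Toward oviduct they were Sbspon (2.78), Npl (2.14), Ccn2 (2.05), Slc2a3 (1.94), Hhip (1.86) and Chst2 (1.68).

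Among differences that closed from the uterine side were Spink1 (3.87), the predicted gene Gm32592 (3.58), Cxcl15 (3.17), Il13ra2 (2.89), Has2 (2.51) and Mest (2.36). From the oviductal side they were Gabrp (-5.13), Cfi (-2.94), Slc7a11 (-2.74), Myb (-2.61), the exchange factor Arhgef38 (-2.50) and Unc5cl (-2.33).

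Among differences that reversed toward uterus were Aoc1 (-5.60), Ltf (-5.23), Lcn2 (-4.17), Slc27a2 (-3.58), Il1f8 (-3.27) and the fucosyltransferase Fut9 (-3.14). Toward oviduct they were Lrp2 (3.46), Ndp (2.95), Ddah1 (2.72), Syn2 (2.68), Maob (2.62) and Wfdc1 (2.21). Without replicate 3 of both oil groups, Gabrp, Cfi and Unc5cl were reversing genes.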

How the results depend on the processing

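Counts of called genes moved by more than 1.5 times under few alternatives. With array weights the E2 comparison gave 10554 calls, the interaction 4531, arising genes 1296 and reversing genes 478. Keeping genes with a group mean of at least log2 8 gave 4040 calls in E2 mice, 4431 in oil mice and 2820 remaining genes, since fewer genes were tested, and requiring 2-fold gave 1225, 1558 and, for the interaction, 568. For the weights the cause was not tested. With single arrays or replicate 3 of both oil groups left out, the counts ranged from 5461 to 7862 (E2), 6760 to 7708 (oil), 1571 to 2812 (interaction), 3711 to 4763 (remaining), 372 to 679 (arising, and 731 without replicate 3 of both oil groups), 656 to 900 (closing) and 167 to 282 (reversing). Other scalings, log scales, gene measures and variance models kept every count within 1.5 times. Differences near 0 in E2 mice changed sign for Gm32592 (-0.001 with array weights), Cxcl15 (-0.001 without E2 oviduct replicate 2, up to 0.42 without another array), Myb (0.024 without E2 oviduct replicate 3, 0.096 without E2 uterus replicate 3, down to -0.088 without another array, 0.104 with weights), Arhgef38 (0.003 without E2 oviduct replicate 1, 0.061 without E2 uterus replicate 3, down to -0.148 without another array, 0.134 with weights) and Esr2 (-0.019 without E2 oviduct replicate 1, -0.010 without E2 oviduct replicate 3, up to 0.065 without another array, -0.011 with median centring). Of 195 named genes called in E2 mice, 172 kept the call with any single array left out. That count does not cover interaction calls. Single left-out arrays ended interaction calls too, among them those of Dcpp3 (any of 9 arrays), Calb1 (8), Mki67 (8), Cyp26a1 (7) and Egfr (7).

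Equal replicate numbers were not taken as pairs, since no label ties them to 1 mouse. Deviations of same-numbered arrays correlated at 0.26, 0.03 and 0.03 across genes in E2 mice, and at 0.005, 0.047 and 0.26 in oil mice. For replicate 1 in E2 mice and replicate 3 in oil mice, the same number was the best match from either tissue. Whether these arrays share a mouse was not tested. With the replicate number as a block, 6844 genes were called in E2 mice, 7800 in oil mice and 2108 for the interaction, with 4527 remaining, 508 arising, 782 closing and 232 reversing. Signal over background limits the size of a fold for genes near the Y-linked level, and 3 arrays a group limit the precision.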

Other observations

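Immediate early genes, which switch on within minutes of cell stimulation, were higher in oviduct. This list of 15 was drawn up after values were seen. In E2 mice 12 were called higher in oviduct (median 1.45), beside 15.2% of all genes, and 12 without E2 oviduct replicate 3. In oil mice 5 were (median 0.99), beside 17.3% of all genes, and the interaction was called for 0 of the 15. Fos, a subunit of the AP-1 factor, read 9.79, 9.70 and 8.33 in E2 oviduct and 6.27, 6.27 and 6.19 in E2 uterus (3.03, SE 0.69, adjusted p = 0.0049), with an interaction of 1.24 that did not pass limma's test (adjusted p = 0.53).

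Single E2 arrays stood apart for a few genes, counted where an array lay more than 1 log2 unit beyond both others of its group. This count leaves out smaller shifts shared by many genes. E2 oviduct replicate 3 read higher for 6 genes, all toward the uterine level, among them Clca1 at 8.72 against 5.26 to 5.57 and Prap1 at 7.66 against 6.11 to 6.12. It read lower for 8 genes, 7 of them toward the uterine level, including Fos, Fosb, Egr1 and Atf3. Some list medians were also shifted on E2 oviduct replicate 3. The E2-induced list had a median of 8.001 there against 7.362 and 7.278 on replicates 1 and 2, toward the level of E2 uterus. The mucosal list had 6.799 against 6.257 and 6.069, also toward uterus. The endometrial gland list had 7.492 against 6.767 and 6.889, away from the 6.357 to 6.568 of E2 uterus. E2 uterus replicate 3 read higher for 14 genes, 8 of them toward the oviductal level, including the adipocyte-expressed Car3 at 11.27 against 8.65 to 9.11 and Cyp2e1 at 8.98 against 6.10 to 6.28. E2 oviduct replicate 1 read higher for 10 genes, none toward uterus, with the Fc receptor Fcgr4 at 9.70 against 7.54 to 7.88.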
